A study of Mus musculus with 6 samples.

Results

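From the complement system 8 genes were followed in RNA sequencing libraries of sorted mouse regulatory T cells, chosen by gene symbol: C1qa, C1qb, C1qc, C3, C6, Cfp, C3ar1 and C5ar1. All 8 were found among the 24424 genes of the count table and among the 23393 genes of a separate normalized table. Regulatory T cells express the factor Foxp3 and hold other immune cells in check; here they were sorted from mouse spleen and lymph nodes of the periphery. The count table held 3 groups of 2 libraries. WT libraries came from mice at steady state labelled Bcl11bF/F, with both alleles floxed and no Cre named. KO libraries came from steady-state mice labelled Bcl11bF/WT Foxp3YFP-Cre +/-, and KO EAE libraries from mice of the same label with EAE, read here as experimental autoimmune encephalomyelitis, the mouse model of multiple sclerosis. The Cre is driven by the Foxp3 gene, so deletion of Bcl11b, a zinc finger transcription factor of T cells, is directed to Foxp3-expressing cells. The strain label of the KO mice names 1 wild-type Bcl11b allele although their genotype label says KO, so "KO" below means the libraries labelled KO. No WT EAE library was analysed here.

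Complement is a cascade of plasma proteins that tags microbes and dying cells and punches holes in membranes. The C1q molecule, built from the chains encoded by C1qa, C1qb and C1qc, recognises antibody and dying cells and starts the classical pathway. C3 is the central component that all pathways cleave, properdin (Cfp) stabilises the alternative pathway enzyme that cleaves C3, and C6 is a subunit of the membrane attack complex. C3ar1 and C5ar1 encode the receptors for the small fragments C3a and C5a, which attract and activate myeloid cells. Most plasma complement is made by the liver, while C1q is made mainly by macrophages and dendritic cells, and properdin by myeloid cells.

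The libraries held 14663542 to 16904312 reads in genes, so that 3 reads were worth 0.170 to 0.205 counts-per-million (CPM). Bcl11b itself stood at 420 and 425 CPM in WT, 371 and 370 in KO, and 404 and 278 in KO EAE, a whole-gene count that does not isolate the floxed part (WT to KO -0.19 ± 0.17 on the log2 scale; edgeR, adjusted p = 0.527). In the normalized table it had 10517 and 11371 normalized reads in WT and 6746 and 5211 in KO (-0.88 ± 0.14; limma, adjusted p = 0.0650). The 9 measured markers of regulatory and other T cells summed to 2072 and 1997 CPM in WT and to 1483 to 1614 CPM in the other groups, and none was at 0 in any library. Of these, 5 fell from WT to KO (edgeR), where 3.46% of all genes tested fell. All 5 are markers of regulatory T cells (Foxp3, Il2ra, Ctla4, Ikzf2 and Tnfrsf18, log2 changes -0.38 to -0.87). Cd3d, Cd3e, Cd3g and Cd4 were not called (-0.08 to 0.04). In the normalized table limma called none of the 9. The changes there were -0.07 for Foxp3, -0.13 for Tnfrsf18, -0.64 for Il2ra, -0.65 for Ctla4 and -0.84 for Ikzf2. The labels do not state whether the 2 replicates of a group are separate animals, so p-values measure only the spread between these libraries, which may be technical.

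The 3 C1q genes lie side by side on the minus strand of chromosome 4 (mm10, GENCODE M21 annotation): C1qb at 136880129 to 136886187, C1qc at 136889804 to 136893065 and C1qa at 136895917 to 136898803. Their starts are 6878 bases (C1qb to C1qc) and 5738 bases (C1qc to C1qa) apart. RefSeq promoter sequences (GRCm38.p6) were found for 7 of the 8 genes, all but C1qa. The stretches before the starts of C1qb, C1qc and Cfp are shown because these genes changed by similar amounts below, and that of C3 because its levels followed another pattern. The C1qc stretch is the 99 bases that lie outside the GENCODE gene. Each is written 5′ to 3′ on the strand of the gene, and capitals mark matches to the motifs named next.
C1qb, chr4:136886201-136886450, minus strand: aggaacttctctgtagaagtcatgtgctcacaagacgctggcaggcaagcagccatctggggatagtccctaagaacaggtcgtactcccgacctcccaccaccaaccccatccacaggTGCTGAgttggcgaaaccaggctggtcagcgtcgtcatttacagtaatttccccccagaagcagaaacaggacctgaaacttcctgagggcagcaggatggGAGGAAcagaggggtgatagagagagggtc
C1qc, chr4:136893066-136893164, minus strand: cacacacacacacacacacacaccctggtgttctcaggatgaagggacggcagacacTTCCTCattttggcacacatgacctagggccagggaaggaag
Cfp, chrX:20931556-20931805, minus strand: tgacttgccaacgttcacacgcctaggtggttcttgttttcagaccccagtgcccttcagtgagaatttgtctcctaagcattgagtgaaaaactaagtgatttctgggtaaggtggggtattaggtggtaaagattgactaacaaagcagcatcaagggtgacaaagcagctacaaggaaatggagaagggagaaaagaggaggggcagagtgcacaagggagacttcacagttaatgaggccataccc
C3, chr17:57228137-57228386, minus strand: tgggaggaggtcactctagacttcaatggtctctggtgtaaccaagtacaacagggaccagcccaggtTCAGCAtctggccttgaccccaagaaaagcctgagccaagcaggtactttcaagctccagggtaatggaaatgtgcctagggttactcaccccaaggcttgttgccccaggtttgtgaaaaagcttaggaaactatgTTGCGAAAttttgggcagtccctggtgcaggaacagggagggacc

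In the 250 bases before the RefSeq start, 4 motifs were searched on both strands: GAGGAA (a core of sites of PU.1, the myeloid master regulator), TTGCNNAA (C/EBP), TGANTCA (AP-1) and TGCTGA (a core of sites of Maf factors). GAGGAA matched C1qb, at bases -30 to -25, and C1qc, as its reverse complement at bases -193 to -188, and none of the other 5 promoters; it occurs in 23.3% of 32851 promoter windows of this length. TTGCNNAA matched C3 alone, at bases -45 to -38 (9.56% of windows). TGCTGA matched C1qb, C3, C3ar1 and C5ar1 (16.1% of windows) and TGANTCA matched C3ar1 (6.75%). Cfp and C6 held no match to any of the 4. The matches did not overlap each other. They describe letters in these windows and are no evidence of binding.

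The transcripts of C1q, properdin, C6 and C3 were higher in the KO libraries than in WT, and the receptor transcripts were low in all groups. Of the 8 genes 6 rose and none fell (edgeR's quasi-likelihood test, adjusted over 14548 genes by the Benjamini-Hochberg method). Over all genes tested 9.41% rose in this comparison and 3.46% fell (12.9% in either direction). The median log2 change was 2.21 over the 8 genes and -0.01 over all genes. All 8 passed the filter on low counts, C5ar1 through its KO and KO EAE libraries. Statements below that libraries of different groups do not overlap are descriptions, since the share of all genes of which this holds was not counted.

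**Figure D1:**
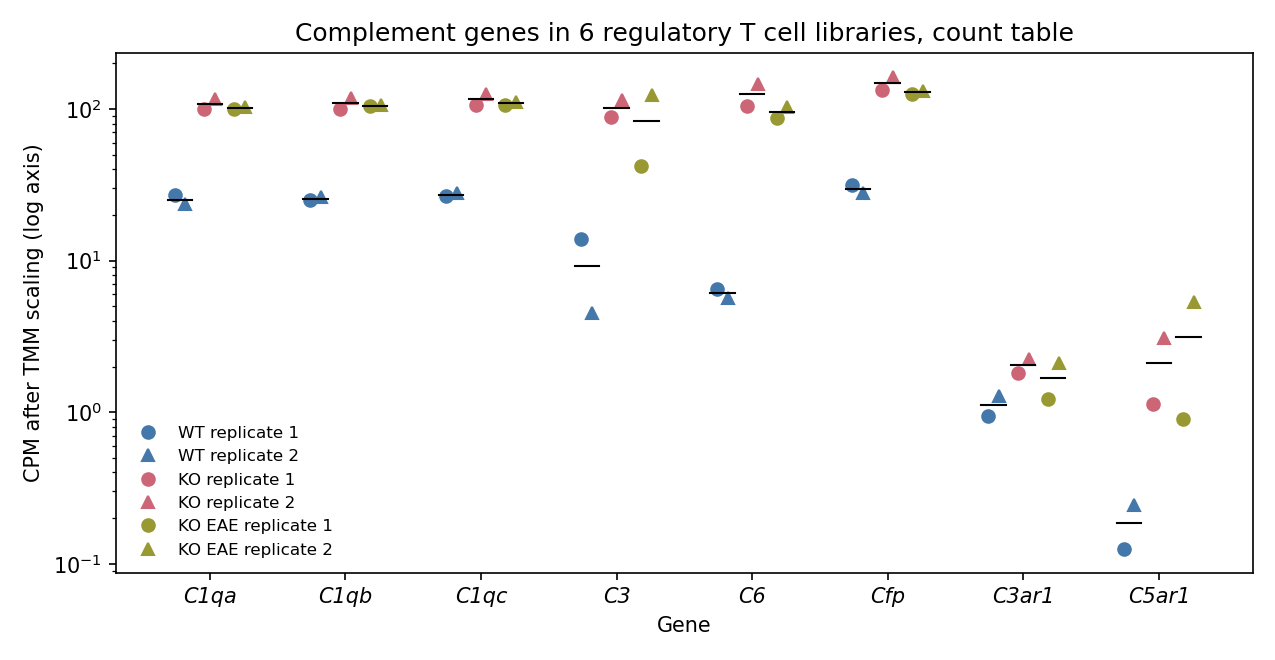
Level of each complement gene in CPM after TMM scaling (log axis) in the 6 libraries of the count table; circles are replicate 1, triangles replicate 2, and black bars the mean of the group (n = 2). The WT libraries lie below the KO and KO EAE libraries for C1qa, C1qb, C1qc, C3, C6, Cfp and C5ar1, and the C3 and C5ar1 points of a group lie far apart. Levels of different genes are not corrected for length here.

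The chains of C1q moved as 1 block in the count table. C1qa, which encodes the A chain, had 26.9 and 23.6 CPM in WT replicates 1 and 2, 101 and 116 CPM in KO, and 99.7 and 102 CPM in KO EAE. C1qb had 25.1 and 26.2 CPM in WT, 99.96 and 118 CPM in KO, and 104 and 106 CPM in KO EAE. C1qc had 26.8 and 27.7 CPM in WT, 106 and 125 CPM in KO, and 106 and 112 CPM in KO EAE. For each chain every KO and KO EAE library lay above both WT libraries. The log2 changes from WT to KO were 2.10 ± 0.11 (SE) for C1qa, 2.09 ± 0.10 for C1qb and 2.08 ± 0.10 for C1qc, which is 4.24-fold to 4.28-fold (edgeR, adjusted p = 0.000121, 0.000106 and 0.000106). These calls held with any 1 of the 4 libraries left out.

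Per kilobase of exon in the count table, the A and B chains stood at near-equal levels and the C chain lower. This rests on GENCODE exon lengths of 1040 bases for C1qa, 1088 for C1qb and 1931 for C1qc. Before division by length the WT means were 25.2, 25.6 and 27.3 CPM. In the normalized table the ratio of C1qa to C1qb per kb was 0.395 to 0.454. In the count table WT means were 24.3 CPM per kb for C1qa, 23.6 for C1qb and 14.1 for C1qc, and KO means 104, 100.2 and 59.9. The ratio of C1qc to C1qb per kb was 0.601 and 0.596 in WT, 0.600 and 0.596 in KO, and 0.572 and 0.595 in KO EAE. That of C1qa to C1qb ran from 0.941 to 1.12 over the 6 libraries. So in the count table the proportion of the chains was much the same in WT and KO while their level differed. In the normalized table C1qc to C1qb per kb was less even, at 0.282 and 0.462 in WT and 0.495 and 0.456 in KO. The C1qb and C1qc profiles, as log2 CPM centred over the 6 libraries, differed by a root mean square of 0.0242.

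Properdin and C6 rose as well, by unequal amounts. Cfp (chromosome X, 20925454 to 20931555) had 31.6 and 27.8 CPM in WT, 134 and 163 CPM in KO, and 126 and 131 CPM in KO EAE. Its log2 change from WT to KO was 2.32 ± 0.12 (edgeR, adjusted p = 0.000136), a 5.01-fold difference. C6 (chromosome 15, 4727175 to 4814967) had 6.44 and 5.70 CPM in WT, 105 and 146 CPM in KO, and 87.5 and 103 CPM in KO EAE. It changed by 4.37 ± 0.21 on the log2 scale, or 20.6-fold (edgeR, adjusted p = 9.43e-05), the largest fold among the 6 genes called. Both groups of KO libraries lay above WT for these genes, and both calls held with any 1 of the 4 libraries left out. The difference in size between genes was not tested.

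C3 rose with a much wider spread between replicates. C3 (chromosome 17, 57203970 to 57228136) had 13.8 and 4.53 CPM in WT, 88.8 and 114 CPM in KO, and 42.2 and 124 CPM in KO EAE. WT replicate 1 was 3.05 times WT replicate 2, and KO EAE replicate 2 was 2.93 times KO EAE replicate 1, yet all 4 KO and KO EAE libraries lay above WT. From WT to KO it changed by 3.46 ± 0.67 on the log2 scale (edgeR, adjusted p = 0.0213). The call was lost without KO replicate 1, KO replicate 2 or WT replicate 2 (adjusted p = 0.0955, 0.114 and 0.0802) and held without WT replicate 1. The log2 change was 4.49 without WT replicate 1 and 2.87 without WT replicate 2.

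Of the anaphylatoxin receptors, C5ar1 was near the limit of detection in WT and C3ar1 was low in all groups. C5ar1 (chromosome 7, 16246743 to 16259540) had 2 and 4 reads in WT, 20 and 45 in KO, and 14 and 83 in KO EAE, or 0.125 and 0.245 CPM, 1.14 and 3.07 CPM, and 0.899 and 5.33 CPM. No KO or KO EAE library fell as low as WT, but the replicates of KO EAE differed 5.93-fold. From WT to KO it changed by 3.44 ± 1.13 on the log2 scale, which edgeR did not call (adjusted p = 0.108) and DESeq2 did (adjusted p = 0.0133). C3ar1 (chromosome 6, 122847138 to 122856161) had 15 and 21 reads in WT, 32 and 33 in KO, and 19 and 33 in KO EAE. Its log2 change was 0.86 ± 0.43 (edgeR, adjusted p = 0.246), so a difference of this size was not separable from the spread between libraries.

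Markers of macrophages moved in the same libraries. Of 16 listed markers of splenic and other tissue macrophages, 16 rose from WT to KO, their summed level was 388 and 432 CPM in WT, 2590 and 2971 in KO, and 2264 and 2566 in KO EAE, and none was at 0 in any library. Monocyte markers (2 of 8 rose) summed to 245 and 193 CPM in WT and to 378 and 518 in KO, dendritic cell markers (4 of 10 rose) to 62.9 and 68.8 in WT and to 186 and 232 in KO. Neutrophil markers (1 of 10 rose, 8 tested) summed to 4.63 and 3.37 CPM in WT and to 27.9 and 57.0 in KO, with S100a8 at 0 in WT replicate 1 and KO replicate 1 and Camp at 0 in KO replicate 1. B cell markers summed to 46.9 and 41.6 CPM in WT and to 81.5 and 126 in KO, and 1 of 8 rose. NK cell markers (3 of 7 rose, 6 tested) summed to 80.8 and 69.1 CPM in WT and to 184 and 175 in KO, with Klra8 at 0 in all libraries. Erythroid markers (3 of 6 rose, 4 tested) summed to 4.004 and 2.69 CPM in WT and to 18.3 and 40.2 in KO. Hba-a1 and Hbb-bs were at 0 in all libraries of the count table. In the normalized table Hbb-bs had 56.0 and 163 normalized reads in WT and 720 and 149 in KO, so its zeros do not show absence. Stromal and endothelial markers (2 of 9 rose, 7 tested) summed to 212 and 199 CPM in WT and to 220 and 214 in KO, with Ccl21a at 0 in all libraries. In WT the stromal sum came largely from Pecam1, the dendritic cell sum from Ccr9 and the monocyte sum from Ly6c2 and Ccr2. None of these genes was called (edgeR, log2 changes -0.01, 0.13, -0.53 and 0.26). Over tested genes, median log2 changes from WT to KO were 3.56 for macrophage, 2.72 for monocyte and 3.06 for dendritic cell markers. They were 2.88 for neutrophil, 1.91 for B cell, 1.46 for NK cell, 3.18 for erythroid and 1.84 for stromal and endothelial markers. The part of these cell types in the higher complement transcripts was not tested. In bulk libraries, fewer cells of a type and less RNA per cell cannot be told apart.

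Set against Adgre1, which encodes the macrophage antigen F4/80, C1qb, Cfp and C6 did not keep a fixed proportion in the count table. The ratio of C1qb to Adgre1 in CPM was 1.12 and 1.40 in WT, 0.470 and 0.450 in KO, and 0.578 and 0.508 in KO EAE. That of Cfp to Adgre1 was 1.41 and 1.48 in WT, 0.630 and 0.623 in KO, and 0.697 and 0.631 in KO EAE. That of C6 to Adgre1 went the other way, with 0.288 and 0.304 in WT, 0.493 and 0.556 in KO, and 0.485 and 0.493 in KO EAE. For these 3 genes the WT libraries did not overlap with the others, whereas C3 to Adgre1 overlapped (0.617 and 0.242 in WT, 0.417 and 0.434 in KO). With 2 libraries against 2, an exact two-sided permutation test cannot go below p = 0.333, so no test was made. With Csf1r, the receptor of macrophage growth factor, as the denominator, C1qb was again lower in KO (0.307 and 0.299 against 0.521 and 0.446 in WT) and C6 higher (0.323 and 0.369 against 0.134 and 0.0970). These ratios depend on the marker taken. From WT to KO the log2 change was 3.53 ± 0.16 for Adgre1, 2.75 ± 0.14 for Csf1r and 2.06 ± 0.10 for Axl, another listed macrophage marker. That of C1qb was 2.09 ± 0.10, and the median of the 16 markers was 3.56. In the normalized table C1qb to Adgre1 overlapped (4.13 and 2.26 in WT, 2.61 and 2.39 in KO), as did C6 to Adgre1 (0.351 and 0.454, 0.340 and 0.435). Cfp to Adgre1 was lower in KO there without overlap (2.22 and 1.49 in WT, 1.31 and 1.36 in KO). So was C3 to Adgre1 (0.737 and 0.317 in WT, 0.147 and 0.0995 in KO).

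**Figure D2:**
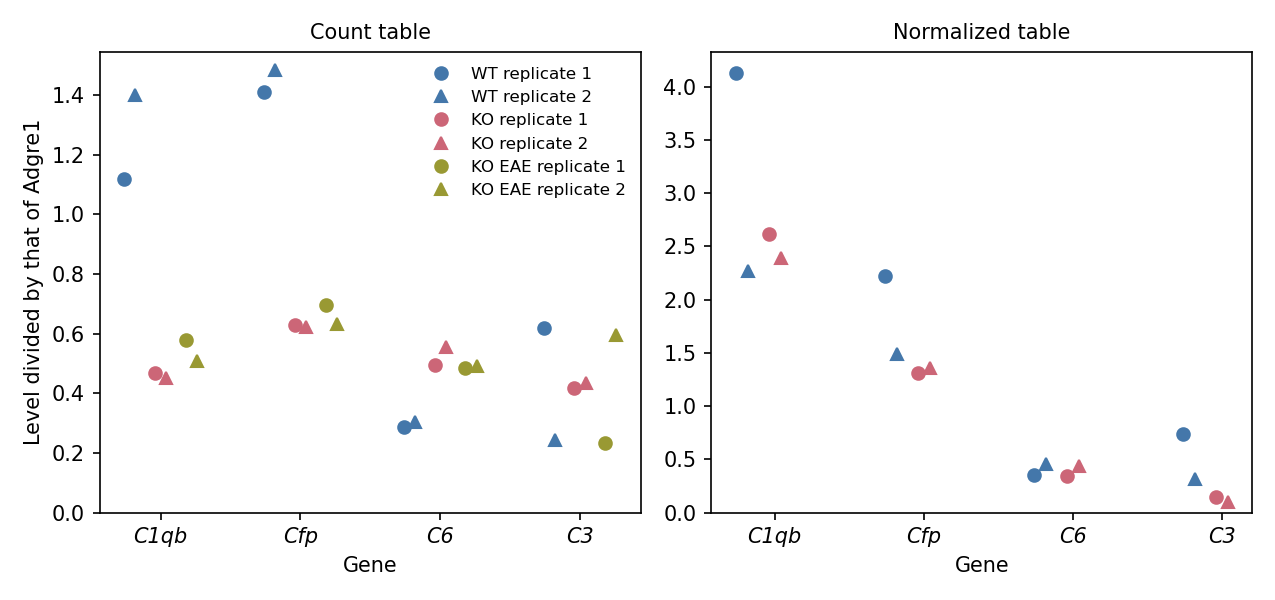
Level of C1qb, Cfp, C6 and C3 divided by the level of Adgre1 in the same library, for the count table (left, 6 libraries) and the normalized table (right, WT and KO only); circles are replicate 1 and triangles replicate 2. In the count table C1qb and Cfp ratios are lower and C6 ratios higher in KO and KO EAE than in WT. In the normalized table the C1qb and C6 ratios of WT and KO overlap, and the Cfp and C3 ratios are lower in KO than in WT.

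Few genes of any kind were called between KO EAE and KO, and no complement gene among the 8 was. None of the 8 was called between KO EAE and KO by edgeR, none had an unadjusted p under 0.05, and DESeq2 called none (1 at an unadjusted p under 0.05). Over all genes 0.0137% rose and 0% fell by edgeR, so few calls were made in this comparison at all. The largest change of the highly expressed members was that of C6, at -0.40 ± 0.17 on the log2 scale (edgeR, adjusted p = 0.529), and its KO EAE libraries lay below both KO libraries. The KO EAE libraries of Cfp did so too, with a change of -0.21 ± 0.12 (edgeR, adjusted p = 0.592). Such separation of 2 libraries from 2 has an exact two-sided permutation p of 0.333. It was not counted over all genes and is a description only. The C1q chains changed by -0.10 ± 0.10 (C1qa), -0.05 ± 0.10 (C1qb) and -0.09 ± 0.10 (C1qc). C3 changed by -0.29 ± 0.58 and C5ar1 by 0.58 ± 0.86, where the wide SE leaves room for changes in either direction; C3 in KO EAE replicate 1 (42.2 CPM) was below both KO libraries and in replicate 2 (124 CPM) above both. Against WT, KO EAE had the same 6 genes called higher as KO (7.41% of all genes rose and 1.95% fell), with C1qb at 2.03 ± 0.10, Cfp at 2.11 ± 0.12, C6 at 3.97 ± 0.20 and C3 at 3.18 ± 0.66. The C3 call was lost there without KO EAE replicate 2, WT replicate 1 or WT replicate 2 (adjusted p = 0.0650, 0.0507 and 0.127). That comparison shares its WT libraries with the comparison of KO and WT and is not independent of it.

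**Figure D3:**
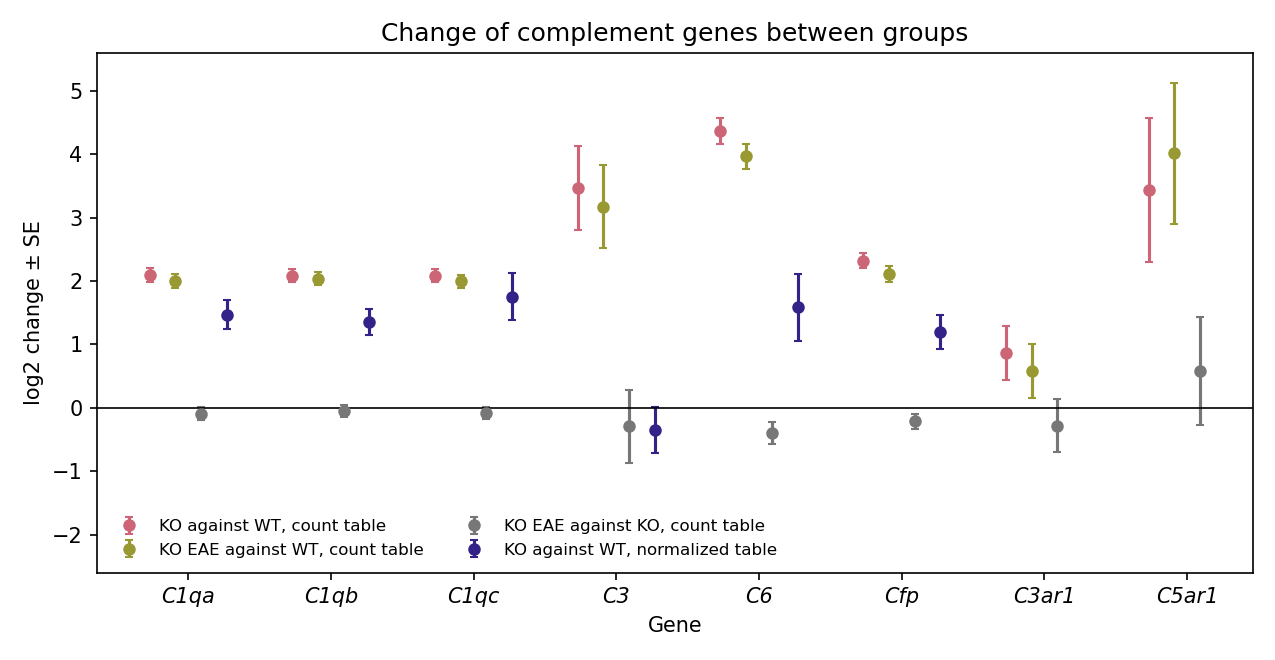
Change of each gene as log2 ± SE, from edgeR for the 3 comparisons of the count table and from limma for the normalized table, where C3ar1 and C5ar1 were too low to test. The C1q chains, Cfp and C6 lie above 0 against WT in both tables, C3 does so in the count table only, and the points for KO EAE against KO run from -0.40 (C6) to 0.58 (C5ar1), with the widest error bars for C3 and C5ar1.

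Among the 8 genes, differences between replicates ran 1 way within KO and within KO EAE but not within WT. This is a description only, since the share of all genes higher in replicate 2 was not counted. In WT 4 of the 8 genes were higher in replicate 2, with ratios of replicate 2 to replicate 1 from 0.328 (C3) to 1.96 (C5ar1). In KO all 8 genes were higher in replicate 2 than in replicate 1, by 1.15-fold (C1qa) to 2.70-fold (C5ar1), and the macrophage markers were so in sum (2590 and 2971 CPM). In KO EAE all 8 were again higher in replicate 2, by 1.01-fold (C1qb) to 5.93-fold (C5ar1). For the C1q chains and Cfp the difference was only 1.01-fold to 1.05-fold. The coefficient of variation between KO EAE replicates was 0.898% for C1qb, 1.92% for C1qa, 3.07% for Cfp and 11.2% for C6, against 69.4% for C3 and 101% for C5ar1. Monocyte and neutrophil markers, which summed to 330 and 31.8 CPM in KO EAE replicate 1, summed to 849 and 153 CPM in replicate 2; their part in the C3 and C5ar1 values was not tested.

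For each member, the 3 genes nearest in pattern were taken among 10956 genes averaging 5 CPM or more and read in every library, by root mean square distance between log2 CPM profiles centred over the 6 libraries. Axl, a receptor for dying cells, was nearest to all 3 C1q chains, at 0.0849 for C1qa, 0.0627 for C1qb and 0.0487 for C1qc, with Pcyox1 and Tyrobp as the other two. C6 lay nearest to Pilrb1, Hfe and Gfra2 (0.0700 to 0.0731), and Cfp to H2-Aa, Tyrobp and Plpp1 (0.0877 to 0.0919). The nearest genes to C3 were C1ra (0.187) and C2 (0.230), which are complement genes themselves, then Lyz1 (0.240). C5ar1 had no close match (Ccl9 at 0.328), and C3ar1 was nearest to Stx3 (0.141). Pearson r over the 6 libraries was 0.945 to 0.9996 over all these neighbours, which the step from WT to the other groups alone brings near 1.

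Of 52 other complement genes, listed with earlier results of these data known, 32 passed the filter on low counts. Of the 32, 11 rose and none fell from WT to KO (edgeR, adjusted p below 0.05), where 9.41% of all genes tested rose and 3.46% fell. DESeq2 called 16, adding Cfb, Cr2, Clu, C4a and Colec12. It called 2425 of 14394 genes in all, 1700 of them higher in KO. Of the 11, C1ra, C1rb, Cd59a, C5ar2 and Vsig4 were below the filter's minimum of 0.621 CPM in 1 or both WT libraries and so were tested only through the libraries in which they are high. In the initiation of the classical and lectin pathways 5 of 16 rose (8 tested): Fcna, C1ra, C1rb, C2 and C4b. Fcna, which encodes ficolin A, a macrophage lectin that starts the lectin pathway, had 24.5 and 25.0 CPM in WT, 146 and 168 CPM in KO, and 128 and 133 CPM in KO EAE. Its log2 change of 2.66 ± 0.10 (edgeR, adjusted p = 4.55e-05) and its small spread resembled those of the C1q chains. C2, the protease subunit of the classical C3-cleaving enzyme, had 6.88 and 1.90 CPM in WT, 43.8 and 52.1 CPM in KO, and 25.5 and 44.5 CPM in KO EAE (3.45 ± 0.57, adjusted p = 0.0122). C1ra and C1rb, which encode the C1r protease and are near-identical copies whose reads may be split uncertainly, changed by 3.55 ± 0.66 and 3.42 ± 0.64. C4b, whose copy C4a makes its count uncertain too, had 5.19 and 1.41 CPM in WT, 31.4 and 25.5 in KO, and 35.1 and 101 in KO EAE. The calls of C1ra, C1rb and C4b were lost without KO replicate 1, KO replicate 2 or WT replicate 2 (adjusted p up to 0.101, 0.104 and 0.180) and held without WT replicate 1; that of C4b was also lost with the replicate number as a block (0.0559). That of C2 was lost without KO replicate 1 or KO replicate 2 (0.0709 and 0.0852).

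C3 and several of these genes differed between replicates in the same direction. WT replicate 1 exceeded WT replicate 2 by 3.05-fold for C3, 3.62-fold for C2, 3.06-fold for C1ra and C1rb, 3.69-fold for C4b and 2.69-fold for Cfb. KO EAE replicate 2 exceeded replicate 1 by 2.93-fold for C3, 1.75-fold for C2, 2.59-fold for C1ra, 2.36-fold for C1rb, 2.89-fold for C4b and 4.35-fold for Cfb. Over the same pairs C1qb differed by 1.04-fold and 1.01-fold. C1ra and C2 had been chosen for their likeness to C3 over these same libraries, and C1rb, C4b and Cfb were set beside C3 after their values had been seen, so the likeness is a description only. Siglec1, a macrophage marker outside the complement system and also picked after its values were seen, had 6.76 and 1.96 CPM in WT and 81.1 and 175 CPM in KO EAE. Cfb, the alternative pathway counterpart of C2, changed by 2.49 ± 0.75 from WT to KO and was not called by edgeR (adjusted p = 0.0884), while DESeq2 (0.0487) and edgeR on the WT and KO libraries alone (0.0144) called it.

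**Figure D4:**
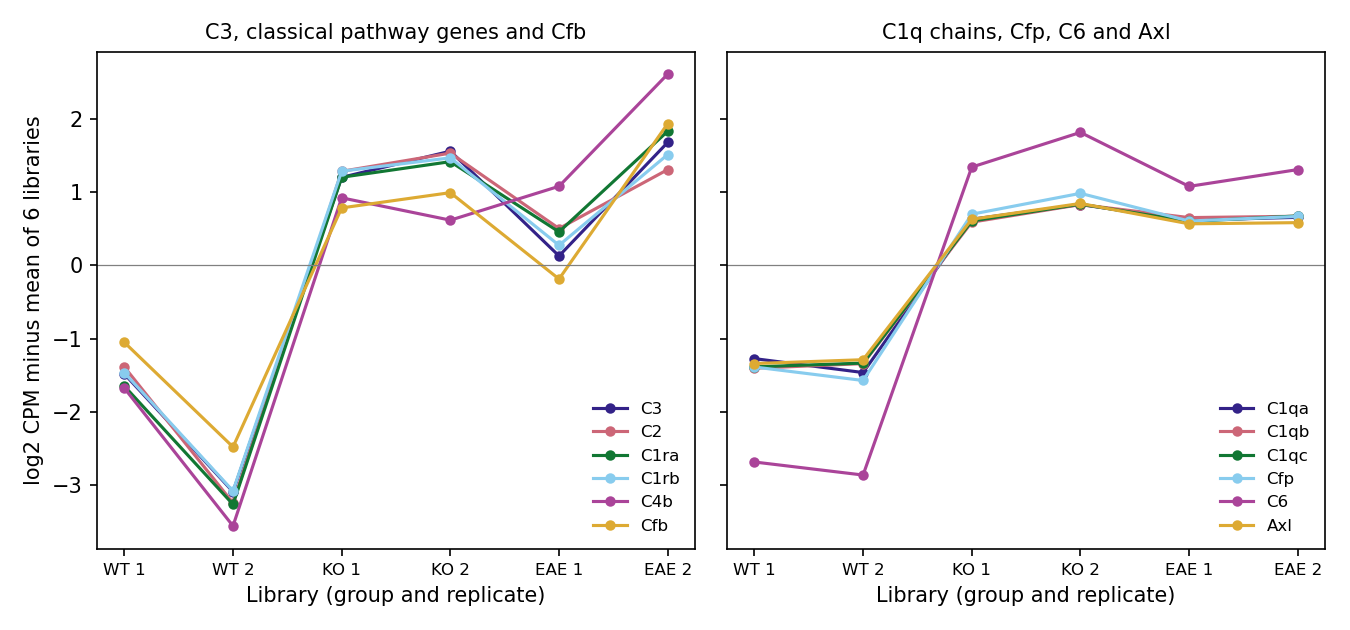
log2 CPM of each gene minus its mean over the 6 libraries of the count table, with libraries on the horizontal axis and lines that only join the points of 1 gene. Left, C3, C2, C1ra, C1rb, C4b and Cfb drop from WT 1 to WT 2 and are higher in EAE 2 than in EAE 1; right, the C1q chains, Cfp and Axl run together and nearly level within each group, and C6 takes a wider step.

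Few genes of the later steps and of the regulators were called, and several were too low to be tested. Over all genes tested 9.41% rose from WT to KO. None of 8 other genes of the alternative and terminal pathways was called by edgeR, and 5 of them did not pass the filter. Hc, the mouse C5 gene, stood at 0.876 and 1.04 CPM in WT and 1.48 and 2.32 CPM in KO (adjusted p = 0.170). C7, C8a, C8b and C9, the partners of C6 in the attack complex, were at most 0.514 CPM in any library, while C8g, which encodes a further chain of C8, stood at 3.48 to 4.11 CPM in all 6. Among soluble inhibitors edgeR called 0 of 9, of which only 3 were tested, while 7 of the 8 membrane regulators were tested. Of 8 membrane regulators only Cd59a, a blocker of the attack complex, rose (0.250 and 0.367 CPM in WT, 3.97 and 2.73 in KO; adjusted p = 0.0118), and that call was lost without any 1 of the 4 libraries (highest 0.0974). Cr1l and Cd55, which protect T cells and other cells from C3 deposition, were the most abundant of them, at 89.5 to 90.2 and 71.4 to 79.7 CPM in WT and 78.7 to 82.4 and 58.1 to 66.2 CPM in KO (log2 changes -0.16 ± 0.07 and -0.28 ± 0.25, adjusted p = 0.212 and 0.511).

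Among 11 other receptors 5 rose: Itgax, Lair1, C5ar2, Vsig4 and Cd93. C5ar2, the second receptor for C5a, had 2 and 8 reads in WT, 130 and 93 in KO, and 47 and 45 in KO EAE, and changed by 4.44 ± 0.53 (edgeR, adjusted p = 0.00341). Lair1, an inhibitory receptor that binds C1q and collagens, went from 11.0 and 13.2 CPM to 79.7 and 101 CPM (2.89 ± 0.19, adjusted p = 0.000281). Vsig4, the macrophage receptor for C3 fragments, had 3 and 1 reads in WT and 41 and 34 in KO (4.15 ± 0.57, adjusted p = 0.00628), a call lost without KO replicate 1, KO replicate 2 or WT replicate 2 (highest 0.0527). Cd93 changed by 2.51 ± 0.53 and lost its call without any 1 library (highest 0.159). Itgax, an alpha chain of the C3 fragment receptor CR4 that also stands in the dendritic cell list, had 5.005 and 6.31 CPM in WT, 92.1 and 123 CPM in KO, and 59.3 and 70.6 CPM in KO EAE. Its partner Itgb2, shared with integrins of T cells, was not called: 287 and 287 CPM in WT against 276 and 322 in KO (0.06 ± 0.10, adjusted p = 0.730). Itgam, the alpha chain of CR3, had 7.32 and 7.96 CPM in WT, 18.9 and 31.5 in KO, and 10.7 and 87.1 in KO EAE (WT to KO, adjusted p = 0.265, and 0.0112 on the WT and KO libraries alone). Cr2, a B cell receptor for C3 fragments, had 1.001 and 1.41 CPM in WT and 2.27 and 8.53 CPM in KO (edgeR, adjusted p = 0.138; DESeq2, 0.0387). Between KO EAE and KO, edgeR called none of the 32 genes, with 4 at an unadjusted p under 0.05, and DESeq2 called 1, Itgax.

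The normalized table, which the authors made by dividing reads by a size factor per library, holds other values for the WT and KO libraries and was tested on its own with limma. C1qa had 526 and 756 normalized reads in WT and 1976 and 1551 in KO, C1qb 1319 and 2003 in WT and 4558 and 3804 in KO, and C1qc 659 and 1642 in WT and 4002 and 3077 in KO. Cfp had 710 and 1320 in WT and 2287 and 2160 in KO, and C6 had 112 and 402 in WT and 593 and 691 in KO. For these 5 genes both KO libraries lay above both WT libraries. With 2 libraries against 2 an exact two-sided permutation test cannot go below p = 0.333, and the share of all genes that do so was not counted. C3 had 236 and 280 in WT and 256 and 158 in KO, and these overlapped. Whole reads recovered from the values numbered 0 and 9 for C3ar1 in WT and 0 and 3 in KO, and for C5ar1 10 and 0 in WT and 0 in both KO libraries, so neither was tested.

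On the log2(value + 1) scale the changes were 1.47 ± 0.23 for C1qa, 1.36 ± 0.21 for C1qb, 1.75 ± 0.37 for C1qc, 1.20 ± 0.27 for Cfp, 1.59 ± 0.53 for C6 and -0.35 ± 0.36 for C3 (SE; limma, adjusted p = 0.0641, 0.0634, 0.133, 0.156, 0.291 and 0.707). None of the 6 genes tested passed the adjusted threshold, by limma or by edgeR on the recovered reads, although 5 had an unadjusted p under 0.05 by either; over all 12149 genes limma called 0.14% higher and 0.0412% lower, and edgeR on recovered reads 0.0653% and 0.0326%. The authors' deposited table lists log2 changes of 1.11 for C1qa (adjusted p = 8.49e-07), 1.11 for C1qb (1.34e-08), 0.85 for Cfp (0.000982), 0.50 for C1qc (0.196), 0.61 for C6 (0.114) and -0.15 for C3 (0.856). The authors' changes came from another method than limma, so their sizes are not directly comparable with those above. In the normalized table the macrophage markers summed to 12377 and 21246 normalized reads in WT and to 49778 and 42052 in KO. As for the C1q chains, Cfp and C6, WT replicate 2 lay above WT replicate 1 for the sum of these markers. Their part in these values was not tested. Of the other complement genes 18 were tested and none was called (limma; 3 at an unadjusted p under 0.05; edgeR on recovered reads called none of 17), with Fcna at 1.56 (adjusted p = 0.0949).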

How the data were processed

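Reads of sorted regulatory T cells were placed on mm10, and HISAT2, HTSeq and DESeq2 are named without versions, per the submitters' processing notes; annotation and strand setting: not given in the sources used here. The authors deposited raw read counts, as whole numbers, for 6 libraries. They also deposited a normalized signal, reads of the WT and KO libraries divided by size factors, from which whole reads were recovered (100% of values above 0, tolerance 0.02 reads). The third deposited table is the authors' comparison, with a mean signal, log2 fold changes, a test score and p-values, per the file headers. Rows that name no gene were dropped (25 of 24449 counted, at most 0.217% of a library, and 27 of 23420 normalized, at most 0.284%).

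The count test ran in edgeR 4.0.16 under R 4.3.3, on all 6 libraries with 1 coefficient per group: filterByExpr (minimum count 10, total 15), TMM, then the quasi-likelihood test with Benjamini-Hochberg adjustment (14548 genes, threshold 0.05). CPM are TMM-scaled, and the SE of an edgeR log2 change is its size over the square root of F. Normalized values entered limma 3.58.1 as log2(value + 1), which understates changes of low genes, for 12149 genes averaging 10 or more. Both scripts were tested on simulated data. Alternatives were DESeq2 1.42.0, other scalings, filters and pseudocounts, a replicate block, and leaving out each library. Exon lengths and positions came from GENCODE M21. The 8 genes and all lists were chosen with earlier results of these data known. The text names the 8 genes, listed complement genes past the threshold, a fixed set of 13 further ones (1 is not reported here), and the 3 genes nearest in pattern to each member. Floors of 3 reads cover counting error only, since no molecular identifiers are stated.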

Additional observations from a re-analysis of the deposited data

How the results depend on the processing

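In the count table the 6 calls among the 8 genes from WT to KO became 7 with DESeq2, with only the libraries of both groups and with the replicate block, C5ar1 being the addition each time (adjusted p = 0.0133, 0.0279 and 0.0205), and 5 to 6 with 1 library left out, where C3 was the call lost. Other scalings and no filter gave 6. From WT to KO, DESeq2 called 2425 of 14394 genes and the replicate block 1668 of 14548. The calls of C1qa, C1qb, C1qc, C6 and Cfp from WT to KO held under all alternatives run on that table. Over all genes 1873 were called, 3121 with the libraries of the 2 groups only, and 846 to 917 with 1 library left out. For KO EAE against WT 1362 genes were called, 2227 with DESeq2, 782 with the 2 groups only, and 603 (without WT replicate 1) to 3762 (without KO EAE replicate 1) with 1 left out; C3 lost its call there with the replicate block (adjusted p = 0.0583) and with the 2 groups only (0.113).

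For KO EAE against KO 2 genes were called, 167 with DESeq2, 0 with the 2 groups only, 0 with the replicate block, and 0 to 313 with 1 library left out, the highest without KO EAE replicate 1. None of the 8 members was called in any of these fits. With 1 library left out 6 members took either sign: -0.20 to 0.013 on the log2 scale for C1qa, -0.18 to 0.078 for C1qb, -0.21 to 0.038 for C1qc, -1.26 to 0.29 for C3, -0.73 to 0.070 for C3ar1 and -1.20 to 1.46 for C5ar1. Itgb2 ranged from -0.056 to 0.17 from WT to KO.

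Of all genes in the normalized table, 22 were called, 12 by edgeR on recovered reads, 9 with a pseudocount of 0.5, 45 with 5, 1 without the filter, 90 with the replicate block, and 0 to 71 with 1 library left out. Of the 8 members 0 were called there, 2 with a pseudocount of 5 (C1qa and C1qb), 3 with the block (the C1q chains) and 0 to 4 with 1 library left out, the 4 without WT replicate 2. The cause of these moves was not tested. The labels do not state whether the replicate numbers pair the libraries. Deviations from the group mean correlated over genes at 0.03 (WT and KO), -0.17 (WT and KO EAE) and 0.21 (KO and KO EAE). With 1 deviation per group, these values cannot settle it. With 2 libraries a group, and 2 to 4 reads of C5ar1 in WT, depth limits what can be said of the receptors.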

Other observations

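The proportion of the C1q chains differed between the deposited tables although the libraries carry the same names. Per kilobase of exon, the ratio of C1qa to C1qb was 0.941 to 1.12 in the WT and KO libraries of the count table and 0.395 to 0.454 in the normalized table. The ratio of C1qc to C1qb was 0.596 to 0.601 in the former and 0.282, 0.462, 0.495 and 0.456 in WT replicates 1 and 2 and KO replicates 1 and 2 of the latter. C1qc of WT replicate 1 (518 recovered reads, beside 1036 for C1qb) stands apart from the other 3 libraries there. Recovered reads totalled 16884434 to 25335011 per library in the normalized table. C3ar1 had 15 to 33 reads in each WT and KO library of the count table and 0 to 9 recovered reads in the normalized table.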
